A study of Mus musculus with 46 samples.

Results

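The genes described here are 10 heat shock and small chaperone genes of the mouse heart: Hspa1a, Hspa1b and Hspa8 (HSP70 proteins), Hsph1 (the HSP110 exchange factor), Dnajb1 and Bag3 (HSP70 partners), Hsp90aa1 (inducible HSP90), and Hspb1, Hspb7 and Cryab (small heat shock proteins). They were taken by gene name from the count table, where they are 10 of 55359 genes, and none of the names was repeated. All 10 passed the filter on low counts in both kinds of library, among 15627 genes tested in the NEBNext libraries and 14812 in the QuantSeq libraries.

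Proteins that lose their fold are bound by HSP70, which a J-domain protein such as DNAJB1 loads onto its client and an exchange factor such as HSP110 or BAG3 releases. Heat shock factor 1 raises the inducible genes of this system, above all Hspa1a and Hspa1b, when unfolded proteins accumulate, through heat shock elements in their promoters that are made of GAA and TTC units facing each other. In heart muscle the small heat shock proteins CRYAB, HSPB7 and HSPB1 are abundant and bind desmin, titin and other filament proteins, and BAG3 couples them to HSP70 and to autophagy.

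The study sequenced mRNA of adult mouse hearts after deletion of Lmna, the gene of the nuclear lamins A and C. All mice carried 1 copy of the Myh6MCM transgene (written My6MCM for the F/F mice of the time course), in which the cardiomyocyte promoter of Myh6 drives a Cre that tamoxifen activates, and all received tamoxifen for 4 days at 6 to 8 weeks of age, controls included. In 26 NEBNext poly(A) libraries, floxed Lmna F/F hearts were compared with Lmna +/+ hearts (wild type) at 1 week (4 against 5), 11 days (2 against 3) and 2 weeks (5 against 7). In 20 QuantSeq 3' libraries, all 2 weeks after tamoxifen, Lmna F/F hearts were compared with heterozygous F/+ hearts on a background with cGas +/+ (6 against 6) or cGas null (4 against 4); cGas is the cytosolic DNA sensor. Every cGas null F/+ library is male. Recombination is driven in cardiomyocytes, so the other cells of the heart keep Lmna. Whether every library came from its own mouse is not stated in the labels. The p-values here set each difference against the spread among libraries within groups, estimated jointly over the groups of a kit.

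Depth was 8477358 to 25856892 counts per NEBNext library and 22099181 to 33993289 per QuantSeq library. The 13 mitochondrially encoded mRNAs took 2.98% to 29.0% and 17.8% to 40.9% of these counts. The summed level of 8 cardiomyocyte markers was 37951 to 138518 CPM (counts scaled to a common library size) in the NEBNext libraries, so the defining markers of heart muscle were present. Lmna itself was 27.0 to 36.9 normalised CPM in F/F, against 45.0 to 67.7 in the wild type libraries at 1 week, with no overlap. At 2 weeks Lmna was 42.3 to 108 in F/F, against 105 to 125 in the wild type libraries. At 11 days the libraries labelled F/F held 58.3 and 58.4 and the wild type libraries 107, 118 and 52.1, so Lmna did not separate them and they are called the libraries labelled F/F. In QuantSeq, F/F and F/+ libraries overlapped for Lmna; these reads come from the 3' end, the labels do not say which part of Lmna is deleted, and the value therefore checks nothing.

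The promoters of the genes that moved most in these libraries, Hspa1a and Hspa1b, are shown first, because their levels differed most between groups and pools. That of Hspb1 is set beside them because it holds the same motif, so the 3 were picked for their letters and are no sample of the members. Sequences are from RefSeq on GRCm38.p6, which is not the build of the counts (mm39), and 7 of the 10 genes matched an entry; those of Hspa8, Hsp90aa1 and Cryab did not. Each sequence is the 150 bases before the annotated start, and capitals mark the GAA and TTC letters of the motif GAANNTTC, in which a head-to-head pair of heat shock element units faces inward.
Hspa1a, chr17:34972157-34972306, minus strand: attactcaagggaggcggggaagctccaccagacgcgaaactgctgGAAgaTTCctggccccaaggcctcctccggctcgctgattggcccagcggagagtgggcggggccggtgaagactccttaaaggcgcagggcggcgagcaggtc
Hspa1b, chr17:34959239-34959388, minus strand: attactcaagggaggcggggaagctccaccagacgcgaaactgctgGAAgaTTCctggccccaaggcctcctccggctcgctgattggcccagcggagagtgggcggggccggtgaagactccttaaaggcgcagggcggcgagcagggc
Hspb1, chr5:135887769-135887918, plus strand: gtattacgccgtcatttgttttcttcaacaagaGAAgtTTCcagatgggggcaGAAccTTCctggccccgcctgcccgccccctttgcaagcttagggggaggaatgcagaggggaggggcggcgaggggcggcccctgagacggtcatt

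Hspa1a and Hspa1b each held 1 GAANNTTC, with its middle 100 bases before the start, and their windows of 250 bases were identical at 247 positions (98.8%). Hspb1 held 2 such motifs, with their middles 113 and 93 bases before its start. The Hsph1 promoter held 1 TTCNNGAA, the other orientation of the pair, and those of Dnajb1, Bag3 and Hspb7 held neither. Both motifs read the same on either strand. Of 32851 promoters searched over the 250 bases before the start, 6.69% held GAANNTTC, 7.17% TTCNNGAA and 12.8% either, so a match is a description of these letters and not a bound site.

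Levels between genes are compared on the deposited TPM values of the NEBNext libraries, which account for length. Cryab was the highest member with a median of 5941.3 TPM over 26 libraries (range 3374.2 to 10809.5), followed by Hspb7 with 938.9 TPM (461.5 to 1405.7). Hspa8, the constitutive HSP70, had a median of 242 TPM, the stress-inducible small protein gene Hspb1 88.5 TPM and Bag3 81.5 TPM. The ranges of Hspb1 (52.4 to 490.6) and Bag3 (40.4 to 135.3) over all 26 libraries overlapped, but their order differed between groups. At 1 week Hspb1 was higher in wild type, at 69.7 to 92.2 TPM against 40.4 to 54.6 TPM for Bag3. In wild type of pool KIUC033 at 2 weeks Hspb1 was lower, at 52.4 to 80.2 TPM against 81.1 to 112.2 TPM. Hspb1 was also higher without overlap in the libraries labelled F/F at 11 days and in both genotypes of pool KIUC035. In the other groups the ranges overlapped. Dnajb1 (16.4 TPM), Hsph1 (14.7 TPM) and Hsp90aa1 (4.81 TPM) came next, again with overlapping ranges. Hspa1a and Hspa1b were lowest, with medians of 0.624 and 0.627 TPM and maxima of 15.8 and 17.5 TPM.

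In the QuantSeq libraries Cryab was again highest (median 961.9 CPM), and Hspa1a and Hspa1b were again lowest (1.70 and 1.46 CPM). Hsp90aa1 ranked 5 of 10 there with a median of 113.7 CPM, against rank 8 in TPM. The 2 tables of libraries were normalised apart and in different units, so only the ranks are set side by side. For some members reads may be divided among near copies: in GENCODE M21 transcripts, 60.3% of the 50-base words of Hspa1a and 62.3% of those of Hspa1b occur in another gene, nearly all of them in each other. Of the 50-base words of Hspb1, 48.8% occur in Hsp25-ps1, and Hsp90aa1 (47.5%) and Hspa8 (38.6%) also share words with other genes. Over the last 500 bases, where QuantSeq reads fall, 100-base words of Hspa1a and Hspa1b occur in no other gene, while 47.6% of those of Hspa8, 33.8% of Hspb1 and 30.4% of Hsp90aa1 do. Hsph1, Bag3 and Cryab share none in either search.

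In hearts with cGas, 2 weeks after tamoxifen, 3 members rose in F/F against F/+ and none fell. Hspa1b rose 6.12-fold, Hspa1a 3.02-fold and Hsp90aa1 1.70-fold, while the constitutive Hspa8, the cochaperones and the small heat shock proteins did not pass the test. Of all genes tested in this comparison, 4.63% passed (554 higher, 132 lower), by edgeR's quasi-likelihood test with a Benjamini-Hochberg adjusted p under 0.05, which is the rule for every call here. The values below are CPM after trimmed-mean (TMM) normalisation.

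Hspa1b, an inducible HSP70, was 0.256, 0.344, 0.537, 0.615, 0.798 and 0.857 CPM in the F/+ libraries and 2.64, 2.97, 3.76, 3.94, 4.53 and 6.45 CPM in F/F. The groups did not overlap, and the lowest F/F library lay well above the highest F/+ library. The log2 fold change was 2.61 ± 0.40 (SE; n = 6 and 6; edgeR adjusted p = 0.000908), with a 95% interval from 1.78 to 3.45. Hspa1a, its near-identical neighbour on chromosome 17, was 0.639, 0.64, 0.662, 0.991, 1.05 and 1.2 CPM in F/+ and 2.13, 2.34, 2.78, 2.80, 3.11 and 4.66 CPM in F/F. Again no F/F library fell within the F/+ range, and the log2 fold change was 1.59 ± 0.39 (adjusted p in edgeR 0.0207). How many of all genes had groups apart in this way was not counted. Both genes had few reads, 6 to 215 per library for Hspa1b and 9 to 165 for Hspa1a over all 20 QuantSeq libraries. With the reads of both genes summed, the log2 fold change was 2.09 ± 0.38 (edgeR adjusted p = 0.00313).

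Hsp90aa1, the inducible cytosolic HSP90, was 49.9, 70.0, 71.2, 78.2, 90.9 and 127 CPM in F/+ and 103, 121, 130, 140, 143 and 201 CPM in F/F. The groups overlapped through 1 F/+ library at 127 CPM. Its log2 fold change was 0.76 ± 0.21 (edgeR adjusted p = 0.0374). The call of Hspa1b held when any 1 of the 12 libraries was left out. That of Hspa1a was lost without F/+ replicate 1 (adjusted p = 0.102), F/+ replicate 3 (0.0997) or F/F replicate 2 (0.0523), and that of Hsp90aa1 was lost without any 1 of 9 of the 12 libraries (F/+ replicates 1, 2, 3, 5 and 6 and F/F replicates 1, 2, 3 and 5). Its adjusted p was then 0.0526 (without F/+ replicate 5) to 0.148 (without F/+ replicate 3).

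**Figure D1:**
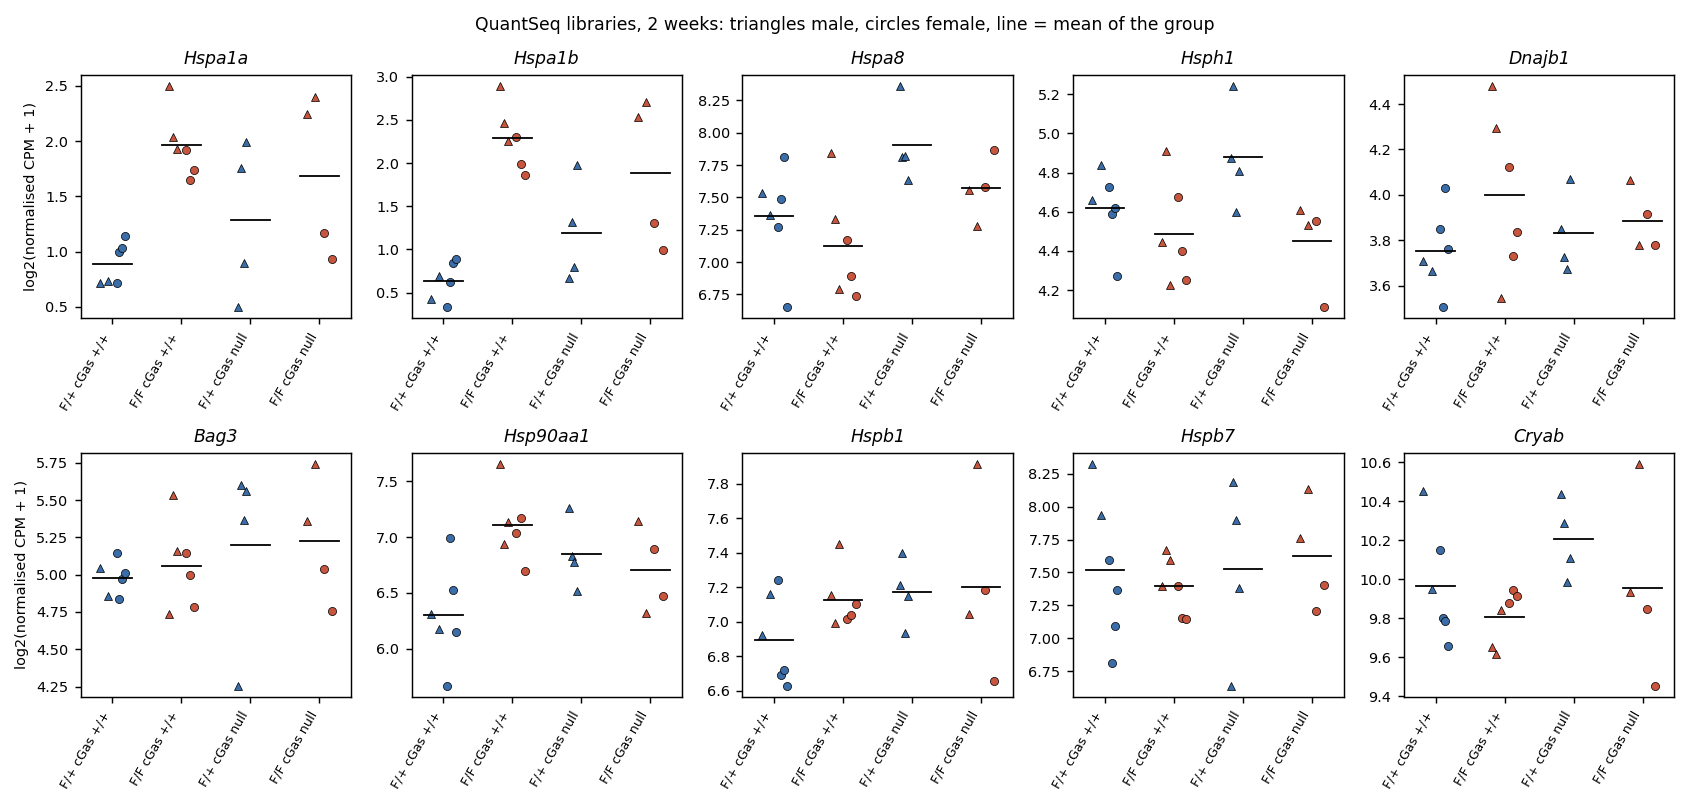
Level of each member in the 20 QuantSeq libraries as log2(normalised CPM + 1), by Lmna and cGas genotype; triangles are male and circles female libraries, and the line is the mean of the log2 values. With cGas +/+, all 6 F/F libraries lie above all 6 F/+ libraries for Hspa1a and Hspa1b, and the other 8 members overlap. The share of all genes whose groups lie apart was not counted.

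The remaining members differed between F/F and F/+ by less than the test could separate. Dnajb1, the J-domain partner of HSP70, had a log2 fold change of 0.27 ± 0.16 with a 95% interval from -0.05 to 0.59. Hspa8 had -0.24 ± 0.21, Hsph1 -0.15 ± 0.14, and Bag3 0.06 ± 0.20. Among the small heat shock proteins, Hspb1 had 0.17 ± 0.16, Hspb7 -0.25 ± 0.20 and Cryab -0.19 ± 0.17. The 7 intervals lay between -0.67 and 0.59. Cryab spanned 807 to 1400 CPM in F/+ and 785 to 983 CPM in F/F.

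Other cell types moved in the same comparison. Of 5 macrophage markers 4 rose (median log2 fold change 1.02), with a summed level of 119 to 155 CPM in F/+ and 192 to 429 CPM in F/F, and of 8 cardiomyocyte markers none passed (median -0.39). Of 8 immediate early genes, which also respond to handling of tissue, 1 rose; their summed level was 52.6 to 122 CPM in F/+ and 64.6 to 99.4 CPM in F/F, so those ranges overlapped. Whether macrophage RNA has a part in the Hspa1a and Hspa1b values was not tested. In bulk hearts fewer cells of a type and less RNA per cell cannot be told apart.

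Without cGas no member passed the test between F/F and F/+ by edgeR, DESeq2 or limma-voom, where 0.527% of all genes did by edgeR, and Hspa1b was the 1 member with an unadjusted p under 0.05. Hspa1b was 0.594, 0.732, 1.49 and 2.95 CPM in the cGas null F/+ libraries and 0.988, 1.47, 4.79 and 5.55 CPM in F/F. Its log2 fold change was 1.36 ± 0.45 (n = 4 and 4; edgeR adjusted p = 0.187), and without a filter on low counts it was 1.37 with an adjusted p of 0.000264. Hspa1a was 0.411, 0.862, 2.37 and 2.99 CPM in F/+ and 0.906, 1.25, 3.75 and 4.26 CPM in F/F; its log2 fold change was 0.79 ± 0.45 (adjusted p in edgeR 0.605). Hsp90aa1 had -0.09 ± 0.27. For all 3 the groups overlapped.

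Sex lies unevenly over these groups. The F/F cGas null libraries at 3.75 and 4.26 CPM of Hspa1a are the 2 males, those at 0.906 and 1.25 CPM the 2 females, and all 4 F/+ libraries are male. With cGas, the male F/F libraries held 2.80, 3.11 and 4.66 CPM of Hspa1a and the females 2.13, 2.34 and 2.78 CPM. In the edgeR fit the male against female term was 0.62 ± 0.34 (log2) for Hspa1a, 0.82 ± 0.34 for Hspa1b and 0.62 ± 0.18 for Hspb7. The edgeR adjusted p were 0.745, 0.59 and 0.267, and no member passed against 0.162% of all genes. Hspa1b and Hspb7 were the 2 members with an unadjusted p under 0.05 (0.0223 and 0.002 in edgeR). Sex was a term of every fit except those run without covariates. In the NEBNext libraries the sex term passed for no member either (0.0896% of all genes passed), and Bag3 was the 1 member there with an unadjusted p under 0.05 (0.23 ± 0.10).

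The change of the F/F effect without cGas was tested directly, and by edgeR no gene passed it (0% of 14812, with 215 at an unadjusted p under 0.05; none by DESeq2 or limma-voom). The change was -1.25 ± 0.61 (log2) for Hspa1b with a 95% interval from -2.51 to 0.01. For Hspa1a it was -0.81 ± 0.61, with an interval from -2.07 to 0.45. For Hsp90aa1 it was -0.85 ± 0.35 (unadjusted p = 0.0241 in edgeR, adjusted p = 1). With intervals this wide and no adjusted call, the data show neither that the rise differed nor that it was alike on the 2 backgrounds. cGas null against cGas +/+ hearts gave no call in F/+ (0% of genes; 616 at an unadjusted p under 0.05) or in F/F (0%; 850), and the 10 members had no unadjusted p under 0.05 in either. DESeq2 called 1 gene lower in F/+ and 1 higher and 4 lower in F/F, none of them a member.

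In the NEBNext series at 2 weeks, where 29.2% of all genes passed (2537 higher, 2025 lower), none of the 10 members did by edgeR, and none did by DESeq2 or limma-voom; 2 members, Hspb1 and Hsph1, had an unadjusted p under 0.05. The level of the inducible members varied widely between wild type hearts of that time: Hspa1a spanned 0.697 to 26.7 CPM. The 2 week libraries belong to 2 pools by the pool id in their labels, KIUC033 (F/F replicates 1 and 2, wild type replicates 1 to 5) and KIUC035 (F/F replicates 3 to 5, wild type replicates 6 and 7), and pool was a term of the fit. The values are therefore given by pool.

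Hspa1a was 2.41 and 4.10 CPM in F/F of KIUC033, against 0.697, 0.896, 1.18, 1.26 and 1.38 CPM in wild type of that pool. In KIUC035 it was 5.27, 7.44 and 9.76 CPM in F/F, against 4.83 and 26.7 CPM in wild type. Hspa1b had similar levels, with 2.64 and 5.41 CPM in F/F and 0.633 to 1.55 CPM in wild type of KIUC033, and 5.63, 9.61 and 10.4 CPM in F/F and 6.73 and 28 CPM in wild type of KIUC035. In KIUC033 both F/F libraries lay above all 5 wild type libraries for both genes. The groups of 4 members were apart in that pool, those of Hsp90aa1 and Hspb7 too. For Hsp90aa1 F/F was higher, but for Hspb7 it was lower (1514 and 1521 CPM, against 1595 to 1876 CPM in wild type). Groups of 2 and 5 libraries can lie apart by chance, and the share of all genes apart was not counted. In KIUC035 the wild type libraries lay on either side of the F/F libraries for Hspa1a, and 1 wild type library, replicate 6, was the highest of all 26 for both.

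Over both pools the log2 fold change was 0.39 ± 0.48 for Hspa1a (edgeR adjusted p = 0.588) and 0.54 ± 0.51 for Hspa1b (0.462). Without wild type replicate 6 it was 1.2 ± 0.39 for Hspa1a (adjusted p = 0.0332) and 1.32 ± 0.42 for Hspa1b (0.0274), so this 1 library decides both calls. Fitted within KIUC033, Hspa1b rose in F/F by 2.05 ± 0.57 (n = 2 and 5; edgeR adjusted p = 0.0425, where 4.38% of all genes passed) and Hspa1a had 1.70 ± 0.57 (0.0847). Within KIUC035, where 22.6% of all genes passed, Hspa1a had -0.93 ± 0.57 and Hspa1b -0.98 ± 0.57 (n = 3 and 2; edgeR adjusted p = 0.262 and 0.236). The difference of the F/F effect between the pools was -2.63 ± 0.79 for Hspa1a and -3.03 ± 0.79 for Hspa1b, with unadjusted p of 0.00267 and 0.000794 in edgeR. After adjustment both were 0.953, and no gene passed (0%, with 792 at an unadjusted p under 0.05).

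**Figure D2:**
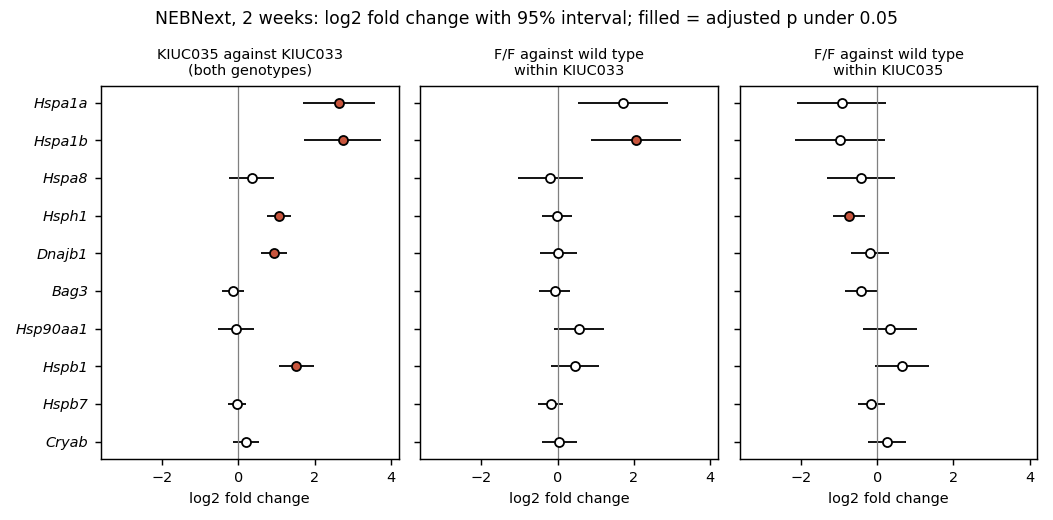
Log2 fold change with its 95% interval for each member at 2 weeks in the NEBNext libraries: pool KIUC035 against KIUC033, then F/F against wild type within each pool; filled points passed an adjusted p of 0.05. Hspa1a, Hspa1b, Hsph1, Dnajb1 and Hspb1 were higher in KIUC035, and the F/F effect of Hspa1a and Hspa1b has opposite signs in the 2 pools.

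Between the pools themselves 5 of the 10 members differed, all higher in KIUC035, where 12.8% of all genes did (878 higher, 1119 lower). Hspa1b was higher by 2.73 ± 0.48 (log2; edgeR adjusted p = 0.00124), Hspa1a by 2.64 ± 0.46 (0.00109), Hspb1 by 1.52 ± 0.22 (0.000238), Hsph1 by 1.06 ± 0.15 (0.000158) and Dnajb1 by 0.94 ± 0.16 (0.00113). Hspa8 (0.35 ± 0.29), Cryab (0.20 ± 0.16), Hspb7 (-0.04 ± 0.12), Hsp90aa1 (-0.07 ± 0.23) and Bag3 (-0.14 ± 0.14) did not pass. The 5 that differed are all stress-inducible genes, but Hsp90aa1 and Bag3, which are inducible too, did not pass. KIUC035 libraries held 19587674 to 25650922 counts and KIUC033 libraries 13824002 to 21221622. The mitochondrially encoded mRNAs took 8.3% to 12.2% of counts in KIUC035 and 12.1% to 22.7% in KIUC033, ranges that barely overlap. The pools also differed in cardiomyocyte markers, 4 of 8 lower in KIUC035 (median -0.40), and in 2 of 8 immediate early genes, both higher. The summed immediate early level of F/F libraries was 119 to 251 CPM in KIUC033 and 296 to 410 CPM in KIUC035, with no overlap. In wild type libraries it was 116 to 178 CPM in KIUC033 and 136 to 165 CPM in KIUC035, and these ranges overlapped. Wild type replicate 6 was at 165 CPM. The part of these differences in the pool values was not tested.

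Hspb1, the gene of HSP25, was 31.8 and 71.5 CPM in F/F of KIUC033 against 31.9, 32.7, 34.5, 43.4 and 47.6 CPM in wild type, and 137, 164 and 178 CPM in F/F of KIUC035 against 93.8 and 110 CPM in wild type. Within KIUC035 the F/F libraries were all above the wild type libraries, and in KIUC033 1 of 2 was. Neither pool alone passed (0.65 ± 0.34 within KIUC035, edgeR adjusted p = 0.18, and 0.45 ± 0.31 within KIUC033, 0.427). The share of all genes apart within KIUC035 was not counted. The log2 fold change over both pools was 0.54 ± 0.23 (edgeR adjusted p = 0.0758) with a 95% interval from 0.07 to 1.01. It passed the threshold under total count scaling (0.83, adjusted p = 0.0149), on the deposited TPM values, without the low count filter, without covariates, and without F/F replicate 1 (0.80, adjusted p = 0.00774) or wild type replicate 5 (0.63, 0.0465). Under total count scaling the median of all genes was itself 0.29, against 0.04 with TMM.

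Hsp90aa1 had 0.45 ± 0.23 (edgeR adjusted p = 0.143). In KIUC033 its F/F libraries held 25.8 and 28.8 CPM, above wild type at 7.11, 16.5, 21.6, 21.9 and 25.5 CPM; in KIUC035 F/F libraries held 22.1, 24.6 and 24.8 CPM and wild type 18.4 and 19.6 CPM. The F/F libraries were thus higher within each pool by small margins, but neither pool alone passed. The log2 fold change was 0.56 ± 0.31 within KIUC033 (edgeR adjusted p = 0.317) and 0.33 ± 0.35 within KIUC035 (0.552). Groups this small can lie apart by chance, and the share of all genes apart was not counted. The adjusted p fell to 0.0464 without the filter, 0.024 with total count scaling and 0.0109 on the deposited TPM values.

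Hsph1 went the other way. It was 34.3 and 40.7 CPM in F/F of KIUC033, inside the wild type range of 29.1 to 45.0 CPM, but 55.6, 58.5 and 63.5 CPM in F/F of KIUC035, below both wild type libraries at 87.6 and 111 CPM. Over both pools its log2 fold change was -0.35 ± 0.15 (edgeR adjusted p = 0.0861), and it passed without wild type replicate 1 (-0.41, adjusted p = 0.0402) or F/F replicate 2 (-0.49, 0.0333). Within KIUC035, where 22.6% of all genes passed, it fell by 0.74 ± 0.20 on the log2 scale (n = 3 and 2, edgeR adjusted p = 0.00993). Within KIUC033 it was -0.02 ± 0.19.

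Hspa8 (-0.30 ± 0.29), Bag3 (-0.24 ± 0.14), Hspb7 (-0.17 ± 0.12), Dnajb1 (-0.09 ± 0.17) and Cryab (0.14 ± 0.16) did not pass at 2 weeks. Hspb7, which binds thin filament proteins of the heart, spanned only 1455 to 1522 CPM over the 5 F/F libraries and 1486 to 1876 CPM over the 7 wild type libraries. Cryab spanned 2292 to 4720 CPM in F/F, against 2417 to 4191 CPM in the wild type libraries. In the same libraries 7 of 8 cardiomyocyte markers fell (median -0.63), with a summed level of 37951 to 68395 CPM in F/F, against 80709 to 100329 CPM in the wild type libraries, and all 5 macrophage markers rose (median 1.76). Of 8 immediate early genes 5 rose (median 1.41; 119 to 410 CPM in F/F, against 116 to 178 CPM in the wild type libraries). Their part in the members' values was not tested.

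**Figure D3:**
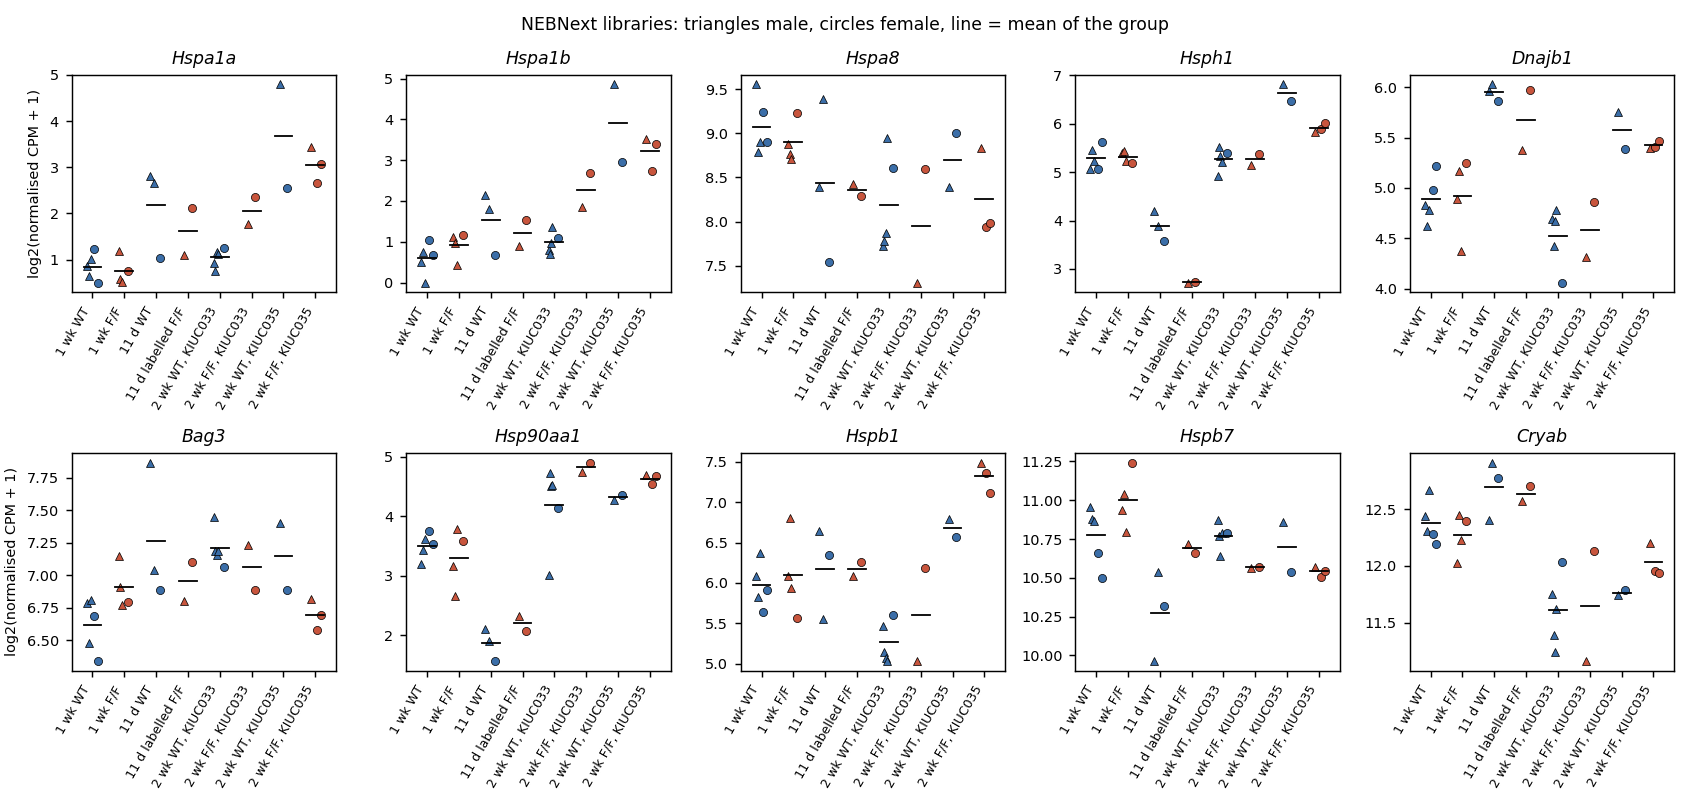
Level of each member in the 26 NEBNext libraries as log2(normalised CPM + 1), by time, genotype and, at 2 weeks, pool; triangles are male and circles female libraries, and the line is the mean of the log2 values. Hspa1a, Hspa1b, Hsph1, Dnajb1 and Hspb1 are higher in pool KIUC035 in both genotypes; each of the other times is 1 pool, so levels are not compared across times.

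At 1 week no member passed the test by edgeR, DESeq2 or limma-voom, and none had an unadjusted p under 0.05, where 0.0256% of all genes passed. The inducible genes were near the limit of counting, with 6 to 22 reads per library for Hspa1a and 0 to 20 for Hspa1b; the library with 0 reads allows up to 0.344 CPM. Hspa1a was 0.425 to 1.27 CPM in F/F, against 0.416 to 1.33 CPM in the wild type libraries, so the groups overlapped. The 8 better counted members had log2 fold changes from -0.19 (Hspa8) to 0.25 (Bag3), each with an interval that holds 0. The change of the F/F effect from 1 week to 2 weeks was called for no member, against 12.4% of all genes by edgeR; DESeq2 and limma-voom also called none, and Bag3 (-0.49 ± 0.21) and Hspb7 (-0.40 ± 0.17) had an unadjusted p under 0.05.

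At 11 days edgeR called no gene (0%, with 1302 at an unadjusted p under 0.05), limma-voom also called none, and DESeq2 called 5 higher and 25 lower, Hsph1 among the lower. Hsph1 was 5.58 and 5.66 CPM in the libraries labelled F/F and 11.0, 13.7 and 17.3 CPM in wild type. The groups did not overlap, and the log2 fold change was -1.31 ± 0.25 (n = 2 and 3; edgeR unadjusted p = 2.27e-05, adjusted p = 0.299; DESeq2 adjusted p = 0.00151). Without wild type replicate 1 it passed in edgeR too (-1.47, adjusted p = 0.00764). Hspb7 was the other member whose groups were apart, at 1620 and 1680 CPM against 998, 1275 and 1483 CPM (0.41 ± 0.17, edgeR adjusted p = 0.545). Groups of 2 and 3 libraries can lie apart by chance, and the share of all genes whose groups were apart was not counted. Hspa1a had -0.72 ± 0.78 and Hspa1b -0.65 ± 0.86. Summed atrial cardiomyocyte markers were 66.6 and 83.4 CPM in the libraries labelled F/F, and 82.6, 680 and 1313.5 CPM in wild type replicates 1 to 3. In the same order fibroblast markers were 607 and 524 CPM, and 578, 2045.6 and 1020.4 CPM. Smooth muscle and pericyte markers were 279 and 293 CPM, and 217, 1147.8 and 260 CPM. The part of these cells in the members' values was not tested.

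**Figure D4:**
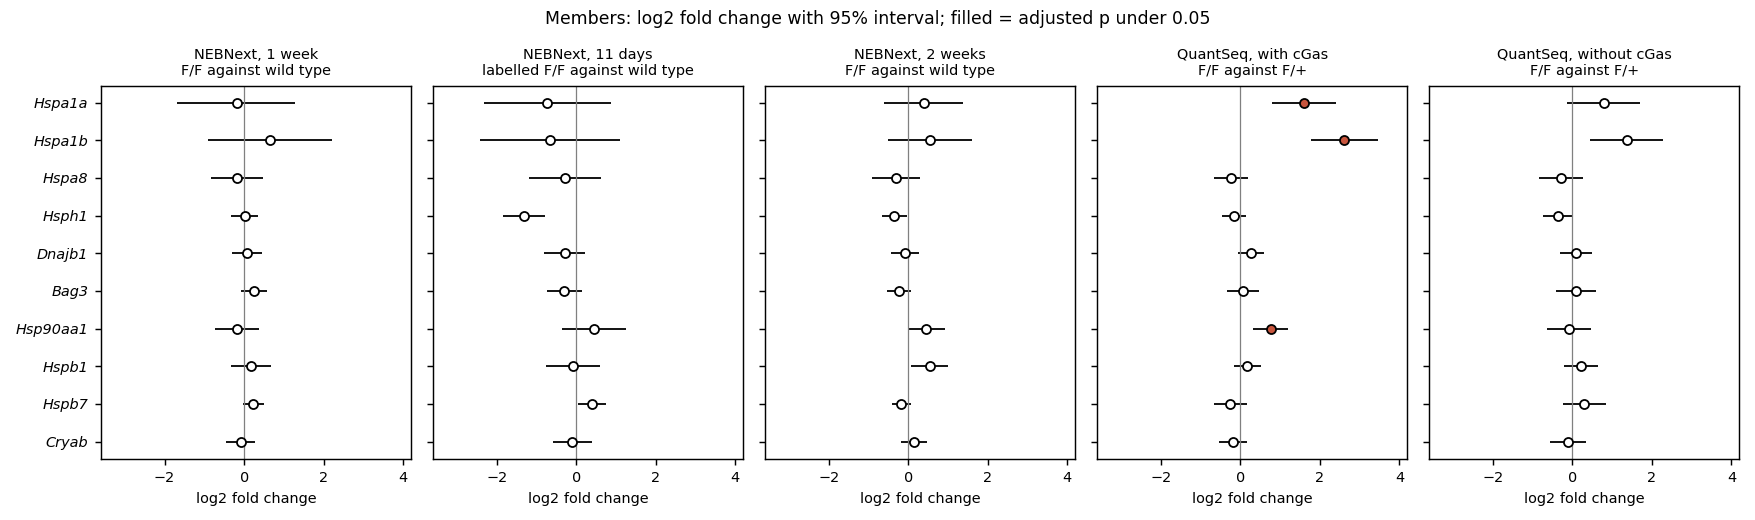
Log2 fold change with its 95% interval for the 10 members in the 3 time points of the NEBNext series and in the QuantSeq series with and without cGas; filled points passed an adjusted p of 0.05. Only Hspa1a, Hspa1b and Hsp90aa1 with cGas are filled, and the intervals of Hspa1a and Hspa1b are the widest in each panel.

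Hspa1a and Hspa1b varied together across libraries of both kits. After removing group means, log2(CPM + 1) of Hspa1a and Hspa1b had a Pearson r of 0.952 over the 26 NEBNext libraries and 0.954 over the 20 QuantSeq libraries, as a description of genes that share libraries, depth and much of their sequence. Other pairs differed between the kits. Hspa1b and Hsph1 had 0.859 in NEBNext and 0.302 in QuantSeq, Hspa1b and Dnajb1 0.795 and 0.444, Hsph1 and Hspb1 0.732 and 0.363, and Hspa1a and Hspb1 0.622 and 0.346. With Hspa1a, Bag3 had 0.214 in NEBNext but 0.658 in QuantSeq, where it was the member most like Hspa1a after Hspa1b. Hspb7 had -0.01 and 0.358, and Hsp90aa1 0.109 and 0.02. The NEBNext values include the difference between pools, since both pools lie within the 2 week groups.

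The genes most like 4 of the members over the same 26 libraries were sought among genes tested with a mean of at least 5 CPM, with the 10 members left out of the search (Hsph1, at 0.803, would come after Gpaa1 for Hspa1a). For Hspa1a they were Gpaa1 (r = 0.825, and 0.381 in QuantSeq), Adamtsl5, Arhgef18, Creb3l1 and Auts2. For Hsph1 they were Leo1 (0.861, and 0.211), Pacsin2, Clasp1, Arntl and Emc1. For Hspb1 they were Eif4a3 (0.945, and 0.628), Srprb, Kdelr2, Bysl and Eif3d. For Cryab they were Hspb2 (0.862, and 0.429), its neighbour in the genome and also a small heat shock protein gene, then Pop7, Cystm1, Trex1 and Ran.

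The rest of the chaperone system was followed in 97 further genes in 8 lists, of which 95 were tested in NEBNext and 94 in QuantSeq. At 2 weeks in NEBNext 10 rose and 15 fell (median -0.05, against 0.04 for all genes). Of all 15627 genes 29.2% were called, 2537 higher and 2025 lower, so the lists as a whole were called about as often. All 10 that rose were chaperones of the endoplasmic reticulum, 10 of 15 on that list (median 0.57), among them Sdf2l1 (1.30 ± 0.25; edgeR adjusted p = 0.000396), a partner of the J-domain protein DNAJB11, and Pdia4 (0.85 ± 0.16; 0.000346), a disulfide isomerase. Within pool KIUC033 2 of the 15 rose and within KIUC035 7 did, and the pool term itself was higher for 7 and lower for 1. In the same comparison 4 of 5 fibroblast markers rose (median 0.74; 1195 to 2624 CPM summed in F/F, and in wild type 722 to 1085 CPM), as did 2 of 4 markers of activated fibroblasts (median 1.79) and 3 of 4 of T and NK cells (median 1.5). Their part in the endoplasmic reticulum values was not tested.

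With TMM scaling 6 of 11 mitochondrial chaperones and proteases fell (median -0.33; with total counts 2 fell and 1 rose), among them the protease subunit gene Clpp (-0.58 ± 0.13; edgeR adjusted p = 0.0018) and the exchange factor gene Grpel1 (-0.54 ± 0.13; 0.00206). Among 24 HSP70 relatives, partners and exchange factors 5 fell and none rose with TMM (with total counts 2 fell and 6 rose), with Dnajb5 (-0.88 ± 0.15) and Dnajb2 (-0.75 ± 0.13) lowest. Among 13 tested HSP90 genes and cochaperones 3 fell with TMM (with total counts 2 fell and 2 rose), with Fkbp4 (-1.03 ± 0.16), an immunophilin of steroid receptor complexes, and Unc45b (-0.82 ± 0.15), the myosin chaperone, lowest. The counts of the HSP70 and HSP90 lists are to be read beside the 2025 of 15627 genes called lower in all. Of 4 tested small heat shock protein genes Hspb8 fell with TMM (-0.39 ± 0.13; edgeR adjusted p = 0.0206) and did not pass with total counts. None of 14 genes of the CCT chaperonin and prefoldin, 5 heat shock factor genes and regulators, or 9 genes of BAG3-assisted autophagy passed by edgeR with TMM; with total counts 5, 2 and 2 of them rose, and DESeq2 called 2 of the last list lower.

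How many genes of the lists rose or fell depends on scaling, which shifted the median of all genes at 2 weeks from 0.04 with TMM to 0.29 with total counts. With total counts all 15 endoplasmic reticulum genes rose, so the genes called on that list were higher under both scalings. In QuantSeq with cGas, none of the 94 rose and 2 fell, Unc45b (-0.62 ± 0.15; edgeR adjusted p = 0.0204) and Dnajb2 (-0.54 ± 0.12; 0.0138). Both had also fallen at 2 weeks in NEBNext. With total counts 1 gene of the HSP70 list rose there and none fell, and no HSP90 gene passed. At 1 week, at 11 days and without cGas edgeR called none of those tested.

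**Figure D5:**
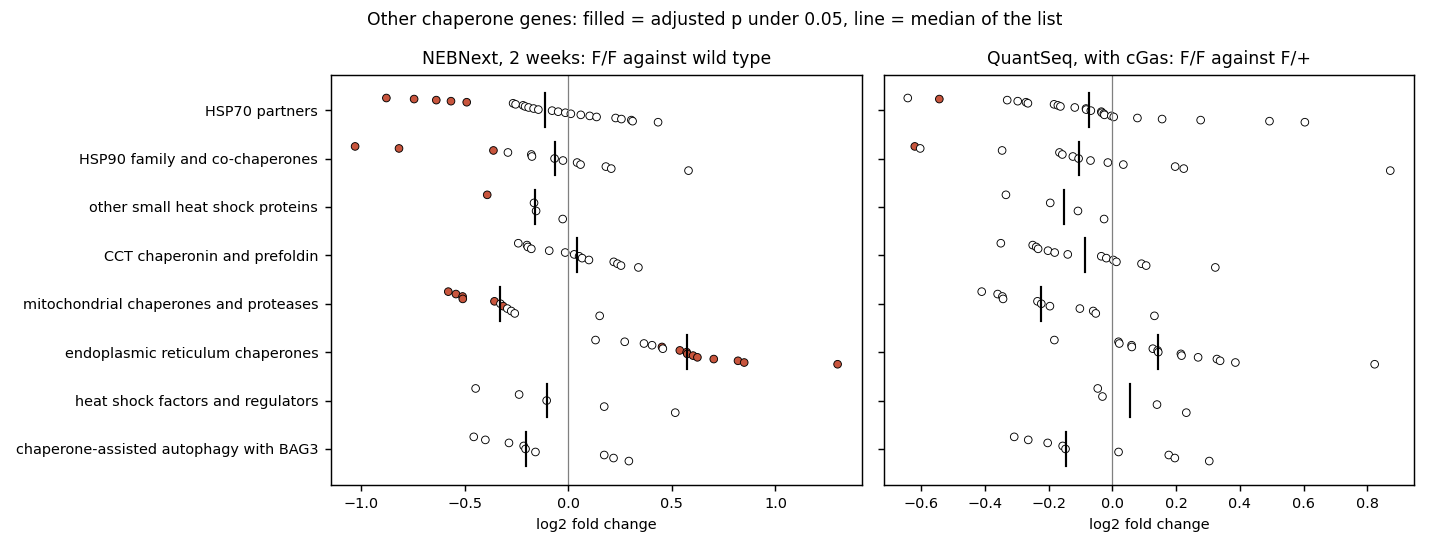
Log2 fold change of the other chaperone genes by list, at 2 weeks in NEBNext and with cGas in QuantSeq; each point is a gene, filled points passed an adjusted p of 0.05, and the line is the median of the list. At 2 weeks the endoplasmic reticulum list lies to the right and the mitochondrial list to the left with TMM scaling; with total counts 1 mitochondrial gene rose and 2 fell.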

How the data were processed

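The authors deposited 1 table of read counts per gene, unnormalised, and 1 of normalised values. Per the values of the deposited files, the second holds TPM, made by the authors from counts, lengths and depth, in its NEBNext columns. In its QuantSeq columns the authors deposited CPM, counts divided by the library total (all 20 columns equal CPM of the counts within 0.01). Per the submitters' processing notes the aligner was STAR 2.7.9 and the build mm39; counting tool, annotation and strand setting: not given in the sources used here. NEBNext reads have 50 cycles and QuantSeq reads 100, per the labels' protocols.

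Counts of each kit were fitted in 1 model with edgeR 4.0.16 (R 4.3.3; TMM, filterByExpr with a minimum count of 10 and a minimum total of 15, quasi-likelihood test, Benjamini-Hochberg, adjusted p under 0.05), with sex and, for NEBNext, pool as covariates. All 10 members are named. From each chaperone list the 2 genes with the largest rise and the 2 with the largest fall among those called are named, and the 5 most like genes are named for 4 members. Members and lists were chosen with earlier results of these data known. Alternatives were DESeq2 1.42.0, limma-voom (limma 3.58.1), no filter, no covariates, counts without mitochondrially encoded mRNAs, total count scaling, deposited values by limma with pseudocounts of 1 and 0.1, only the groups compared, Hspa1a and Hspa1b summed, and each library left out. The fit was tested on simulated data.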

Additional observations from a re-analysis of the deposited data

Results flagged for a closer look

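In each of the 80 combinations of a member and a group of 4 to 7 libraries, the most extreme library was set against the others by Dixon's ratio; 5 stood apart, where chance flags about 1 in 20. In the F/F cGas null group, Hsph1 was 16.3 CPM in replicate 3, against 22.2 to 23.4 CPM in the other 3. In the F/+ cGas null group, Bag3 was 18.1 CPM in replicate 1, against 40.3 to 47.4 CPM. Among wild type hearts at 2 weeks, Hsp90aa1 was 7.11 CPM in replicate 1, against 16.5 to 25.5 CPM. Among F/F hearts with cGas, Hspb1 was 174 CPM in replicate 5, against 126 to 142 CPM. Among F/F hearts at 2 weeks, Cryab was 2292 CPM in replicate 1, against 3930 to 4720 CPM.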

How the results depend on the processing

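The 3 members called with cGas kept their direction under every alternative run. Hspa1a and Hspa1b at 2 weeks in NEBNext did not: leaving out each library gave log2 fold changes from -0.14 to 1.2 and from -0.04 to 1.32, and Hspa1b was 2.05 within pool KIUC033 and -0.98 within KIUC035. Members called at 2 weeks in NEBNext, 0 by the main test, were 2 without the filter on low counts, 1 without covariates, 2 with total count scaling, 2 on the deposited values with either pseudocount, and, in fits added after seeing the data, 1 within pool KIUC033 and 1 within pool KIUC035. All genes called there, higher and lower, were 2699 and 1753 without the filter and 2823 and 2059 without covariates. They were 4373 and 822 with total counts, and on the deposited values 3883 and 643 (pseudocount 1) or 3335 and 600 (0.1). Within the pools 4.38% (KIUC033) and 22.6% (KIUC035) of all genes passed. At 11 days the members called were 1 with DESeq2 (5 and 25 genes in all) and 1 without the filter (42 and 159). Without cGas 1 member was called without the filter (459 and 56 genes in all). Leaving out each library in turn gave 0 to 2 members at 2 weeks, 0 to 1 at 11 days and 1 to 3 with cGas. The cause was not tested. Among values of single members, 12 lost their call when a library was left out and 7 gained one; under the other settings 12 gained one and none was lost. Fitting only the groups compared could give no separate value for the change without cGas, since all 4 groups enter it. No paired analysis was possible because replicate numbers follow accession order and pair nothing. The tests of the pool and sex terms were also chosen after seeing the data. Intervals of Hspa1a and Hspa1b are limited by their low counts, and the 11 day groups by 2 and 3 libraries.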
